A study of Homo sapiens with 4 samples.

Results

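The genes described here are NFE2L2, which encodes the transcription factor NRF2, its inhibitor KEAP1, and 7 genes that NRF2 is known to activate: SLC7A11, GCLC, GCLM, NQO1, HMOX1, TXNRD1 and SRXN1. They were named as a pathway and matched by symbol, and all 9 were found once each among the 58735 genes of the tables. Levels were read by RNA-seq in MHCC-97H cells, an established human line of highly metastatic hepatocellular carcinoma (HCC). By the labels, MHCC-97H cells were sequenced in every group, and they are taken as wild type. They differed in what they received for 24 h: PBS alone, or 2 μg of migrasomes (Migs), large vesicles that migrating cells leave behind. The donors of the Migs were MHCC-97H cells grown in normoxia (normo-Migs) or in hypoxia (hypo-Migs), or MHCC-97H cells that lacked CD147 and were kept in hypoxia (CD147KO-Migs). CD147 was therefore removed from the donor of the vesicles and not from the cells measured. The labels list several oxygen levels for hypoxia and do not say which of them gave these Migs, and the sources used here do not state whether the knockout line was 1 clone. Each condition had 1 library, 4 in all, so a difference between libraries cannot be set against the spread between cultures.

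NRF2 is controlled mainly as a protein. In unstressed cells KEAP1 holds it and presents it to a CUL3 ubiquitin ligase, so that it is degraded. Oxidants and electrophiles modify cysteines of KEAP1, NRF2 then accumulates, pairs with small MAF proteins and binds antioxidant response elements near genes for glutathione synthesis, thioredoxin recycling, quinone reduction and haem breakdown. NFE2L2 and KEAP1 are recurrently mutated in HCC. RNA levels report on the targets and on the supply of transcripts, and do not measure NRF2 protein.

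The core of the response element can be written TGACNNNGC. Promoter windows of 300 bases, from 250 before to 50 after an annotated start site, were available from RefSeq (GRCh38.p14) for 7 of the 9 genes, as 10 windows, because NFE2L2, KEAP1 and TXNRD1 have 2 start sites each. The core was searched on both strands and was found in 4 of the 10 windows, which belong to GCLM, KEAP1 and TXNRD1. Of all 35116 promoter windows of the same length, 13.3% held it. The stricter form TGACTCAGC, whose matches are also matches of the core, was in 0 of the 10 windows and in 0.561% of all windows. Sequence outside these windows was not searched, so a window without a match does not show that a gene lacks an element. The 3 genes with a match include both directions of difference described below. The matched stretches are printed for that reason and because they hold the core of the response element. They are given 5′ to 3′ on the strand of the gene, and capitals mark the match, which on some lines reads on the opposite strand.
GCLM, chr1:93909436-93909484, minus strand: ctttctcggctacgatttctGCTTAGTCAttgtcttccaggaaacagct
KEAP1, second start site, chr19:10502774-10502845, minus strand: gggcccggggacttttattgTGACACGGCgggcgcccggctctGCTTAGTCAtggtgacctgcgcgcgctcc
TXNRD1, first start site, chr12:104215660-104215779, plus strand: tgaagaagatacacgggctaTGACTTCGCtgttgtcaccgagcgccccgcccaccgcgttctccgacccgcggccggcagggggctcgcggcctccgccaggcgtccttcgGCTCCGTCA
TXNRD1, second start site, chr12:104286910-104286958, plus strand: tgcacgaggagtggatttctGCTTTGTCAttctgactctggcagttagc
GCLM and KEAP1 carried the same 9 letters, GCTTAGTCA, which begin 34 bases before the start site in GCLM and 31 bases before it in KEAP1. A match is a description of the letters and not evidence of binding.

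Reads on genes numbered between 33882496 and 40285223 per library. The library labelled PBS stood apart from the Mig libraries: 251 genes had 3 reads or fewer there and at least 100 reads in each Mig library, and 13 genes had 3 reads or fewer in every Mig library and at least 100 with PBS. Each comparison with PBS below rests on that library. With 1 library per condition, the effect of Migs and any other difference between the PBS culture and the rest cannot be told apart. Whether all 4 libraries came from the same line was not tested. Ratios among Mig libraries do not use the PBS reads, but the scaling factors and the filter on reads were taken over all 4 libraries. Of 11 hepatocyte and liver cancer markers, ALB, AFP, APOB, TTR and GPC3 had 0 reads in all 4 libraries and APOA1 had 2 reads or fewer, whereas KRT8, KRT18 and HNF4A were present in all 4. SERPINA1 had few reads, 25 after PBS and 2, 9 and 10 after normo-Migs, hypo-Migs and CD147KO-Migs. Mostly through KRT8 and KRT18, the list summed to 4205 counts per 1000000 reads on genes (CPM) after PBS and 5468 to 6573 after Migs. Summed markers of fibroblast and mesenchymal cells, 6 genes, reached 311 CPM after PBS and 824 to 860 after Migs. SPARC had 0 reads in the PBS library and COL1A2 had 2 reads or fewer everywhere. Of the 5 with at least 10 reads in any library, 1, 2 and 2 were lower than PBS after normo-Migs, hypo-Migs and CD147KO-Migs. Their log2 fold changes ran from -0.84 to 12.8, -0.20 to 12.9 and -0.42 to 12.9 in the same order. Summed leukocyte markers, 5 genes, reached 0.472 CPM after PBS and 2.63, 3.70 and 4.28 after normo-Migs, hypo-Migs and CD147KO-Migs. CD3E had 0 reads everywhere and PTPRC 2 reads or fewer. The 2 with at least 10 reads in any library had few reads and were higher than PBS in each comparison. The 4 endothelial markers summed to 3.16 CPM after PBS and 4.28, 5.41 and 5.54 after Migs, with KDR at 2 reads or fewer. Of the 2 with at least 10 reads in any library, 1 was higher and 1 lower than PBS in each comparison. Their log2 fold changes were -1.41 and 2.76, -0.43 and 2.83, and -0.52 and 2.87. The part of these differences in the results was not tested. In bulk RNA, fewer cells that express a gene and less RNA per cell cannot be told apart.

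The 9 genes covered a wide range of levels, and all averaged over 100 reads per library. Levels of different genes are compared as the authors' FPKM, which divides reads by gene length and library size. TXNRD1, which encodes the reductase that recycles thioredoxin, and NQO1, a quinone reductase, were the highest in every library. After hypo-Migs, TXNRD1 stood at 86.0 FPKM and NQO1 at 84.1, followed by NFE2L2 at 19.7, KEAP1 at 17.0, GCLM at 14.8, HMOX1 at 14.3, GCLC at 6.93, SLC7A11 at 5.90 and SRXN1 at 1.68. After PBS, the order below NQO1 was KEAP1, NFE2L2, GCLM, GCLC, SLC7A11, HMOX1 and SRXN1. HMOX1 was thus below GCLC and SLC7A11 after PBS and above both of them in each Mig library.

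To ask whether Migs of any kind go with other levels of these genes than PBS, each Mig library was compared with the library labelled PBS after TMM scaling of the reads. In all 3 comparisons, which share the PBS library, 4 genes were higher after Migs (NFE2L2, GCLM, NQO1 and HMOX1) and 5 were lower (KEAP1, SLC7A11, GCLC, TXNRD1 and SRXN1). The exact 95% interval of the ratio, which covers counting error only, left out equal levels for 9 of 9 genes in each comparison. It did so for 83.4% (normo-Migs), 84.3% (hypo-Migs) and 83.8% (CD147KO-Migs) of the genes that averaged 100 reads or more, so that most genes of this depth were apart from the PBS library by this measure. A log2 fold change of at least 1 in either direction, the fold criterion of the study, was reached by 1 gene, HMOX1, after hypo-Migs and by 0 genes after normo-Migs or CD147KO-Migs. Of the 12293 genes that averaged 100 reads or more, 17.6% reached it after normo-Migs, 18.1% after hypo-Migs and 18.2% after CD147KO-Migs, and of the 19895 genes tested 30.2%, 30.5% and 30.3% did. A 1.5-fold difference was reached by 3 of the 9 genes in each comparison, against 36.1%, 37.1% and 36.9% of the genes with at least 100 reads in the same order. The median absolute log2 fold change of the 9 genes was 0.44 after normo-Migs, 0.57 after hypo-Migs and 0.54 after CD147KO-Migs, beside 0.42, 0.43 and 0.42 for all genes of that depth. The signed median of the 9 genes was -0.35, -0.43 and -0.38, beside 0.04, 0.03 and 0.03.

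**Figure D1:**
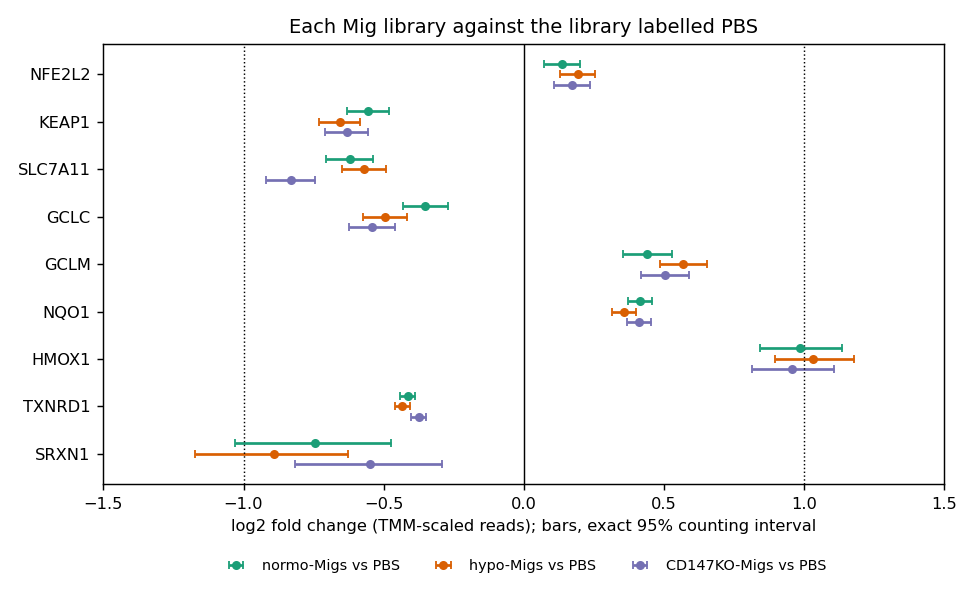
Log2 fold change of each Mig library against the library labelled PBS for the 9 genes, with points for the ratio of TMM-scaled reads, bars for the exact 95% counting interval and dotted lines at a 2-fold difference. HMOX1 alone lies near the upper dotted line (0.96 to 1.03), and SLC7A11 and SRXN1 come nearest to the lower one (-0.83 and -0.89 at most).

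NFE2L2 and KEAP1, the factor and its inhibitor, differed from the PBS library in opposite directions. NFE2L2 is on chromosome 2 (177227595 to 177392697, minus strand, GRCh38), with 14 transcripts in GENCODE release 29. It stood at 17.4 FPKM after PBS, 19.0 after normo-Migs, 19.7 after hypo-Migs and 19.4 after CD147KO-Migs. The PBS library was the lowest, and the Mig libraries were within 1.04-fold of each other. Against PBS, the log2 fold change was 0.14 after normo-Migs (exact 95% interval 0.07 to 0.20), 0.19 after hypo-Migs (0.13 to 0.26) and 0.17 after CD147KO-Migs (0.11 to 0.24).

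KEAP1 (chromosome 19, 10486120 to 10503741, minus strand) stood at 27.1 FPKM after PBS, 18.3 after normo-Migs, 17.0 after hypo-Migs and 17.3 after CD147KO-Migs. PBS was the highest library, and its level was apart from the other three. The log2 fold change was -0.55 after normo-Migs (-0.63 to -0.48), -0.66 after hypo-Migs (-0.73 to -0.58) and -0.63 after CD147KO-Migs (-0.71 to -0.56). Among Mig libraries, KEAP1 was slightly lower after hypo-Migs than after normo-Migs, at -0.10 (-0.18 to -0.02). The RNA ratio of NFE2L2 to KEAP1 within a library, which does not depend on scaling between libraries, was 0.643 after PBS (0.613 to 0.674), 1.04 after normo-Migs (0.986 to 1.09), 1.16 after hypo-Migs (1.10 to 1.21) and 1.12 after CD147KO-Migs (1.07 to 1.18).

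SLC7A11, GCLC and GCLM supply glutathione. SLC7A11 is the light chain of the cystine importer xCT, GCLC is the catalytic subunit of glutamate-cysteine ligase, which carries out the rate-limiting step of glutathione synthesis, and GCLM is the modifier subunit of the same enzyme. SLC7A11 (chromosome 4, 138164097 to 138242349, minus strand) stood at 8.83 FPKM after PBS, 5.70 after normo-Migs, 5.90 after hypo-Migs and 4.92 after CD147KO-Migs. It was highest after PBS and lowest after CD147KO-Migs. Its log2 fold change against PBS was -0.62 after normo-Migs (-0.71 to -0.54), -0.57 after hypo-Migs (-0.65 to -0.49) and -0.83 after CD147KO-Migs (-0.92 to -0.74).

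GCLC (chromosome 6, 53497341 to 53616970, minus strand) and GCLM (chromosome 1, 93885205 to 93909456, minus strand), whose products form 1 enzyme, differed from PBS in opposite directions. GCLC stood at 9.83 FPKM after PBS, 7.66 after normo-Migs, 6.93 after hypo-Migs and 6.71 after CD147KO-Migs. GCLM stood at 10.0 FPKM after PBS, 13.5 after normo-Migs, 14.8 after hypo-Migs and 14.1 after CD147KO-Migs. The PBS library was thus the highest for the catalytic subunit and the lowest for the modifier. Against PBS, the log2 fold change of GCLC was -0.35 after normo-Migs (-0.43 to -0.27), -0.50 after hypo-Migs (-0.57 to -0.42) and -0.54 after CD147KO-Migs (-0.62 to -0.46). That of GCLM was 0.44 (0.35 to 0.53), 0.57 (0.49 to 0.65) and 0.50 (0.42 to 0.59) in the same order. The ratio of GCLC to GCLM by FPKM was 0.981 after PBS (0.925 to 1.04), 0.566 after normo-Migs (0.535 to 0.600), 0.469 after hypo-Migs (0.444 to 0.494) and 0.475 after CD147KO-Migs (0.449 to 0.504). Transcripts of the subunits were thus near parity only in the PBS library, and the intervals of the hypo-Migs and CD147KO-Migs ratios overlapped each other and not that of normo-Migs.

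NQO1 and HMOX1 are the enzymes of quinone and haem metabolism in the set, and both were higher after Migs than after PBS. HMOX1 encodes haem oxygenase 1, the inducible enzyme that opens the haem ring and releases iron and carbon monoxide. Its gene is on chromosome 22 (35380361 to 35394214, plus strand). HMOX1 had 583 reads after PBS, 1142 after normo-Migs, 1389 after hypo-Migs and 1150 after CD147KO-Migs, which is 7.01, 13.8, 14.3 and 13.5 FPKM. All Mig libraries stood well above the PBS library and within 1.05-fold of each other. The log2 fold change was 0.99 after normo-Migs (0.84 to 1.14), 1.03 after hypo-Migs (0.89 to 1.18) and 0.96 after CD147KO-Migs (0.81 to 1.11). Each interval held the 2-fold criterion, so that HMOX1 being past it after hypo-Migs alone does not set that library apart. The FPKM of HMOX1 was 0.794 times that of SLC7A11 after PBS (0.725 to 0.868), 2.42 times after normo-Migs (2.25 to 2.61), 2.42 times after hypo-Migs (2.26 to 2.58) and 2.75 times after CD147KO-Migs (2.55 to 2.96).

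NQO1 (chromosome 16, 69706996 to 69726951, minus strand) had between 7435 and 11078 reads per library. It stood at 66.1 FPKM after PBS, 87.5 after normo-Migs, 84.1 after hypo-Migs and 87.1 after CD147KO-Migs. PBS was again the lowest library. The log2 fold change was 0.41 after normo-Migs (0.37 to 0.46), 0.36 after hypo-Migs (0.31 to 0.40) and 0.41 after CD147KO-Migs (0.37 to 0.45).

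TXNRD1 and SRXN1 keep peroxiredoxins active, TXNRD1 by reducing thioredoxin and SRXN1, sulfiredoxin, by repairing peroxiredoxins that have been over-oxidised. Both were lower after Migs than after PBS. TXNRD1 (chromosome 12, 104215779 to 104350305, plus strand) had the most reads of the 9 genes, up to 27128 in the PBS library. It stood at 117 FPKM after PBS, 87.2 after normo-Migs, 86.0 after hypo-Migs and 89.5 after CD147KO-Migs. The log2 fold change was -0.41 after normo-Migs (-0.44 to -0.39), -0.43 after hypo-Migs (-0.46 to -0.41) and -0.38 after CD147KO-Migs (-0.40 to -0.35). NQO1 had 0.565 times the FPKM of TXNRD1 after PBS (0.551 to 0.580) and 1.00 times after normo-Migs (0.979 to 1.03), 0.977 times after hypo-Migs (0.955 to 1.00) and 0.974 times after CD147KO-Migs (0.951 to 0.997).

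SRXN1 (chromosome 20, 646615 to 653370, minus strand) was the least abundant of the set and had the widest intervals. It had 295 reads after PBS, 173 after normo-Migs, 184 after hypo-Migs and 204 after CD147KO-Migs, or 3.16, 1.87, 1.68 and 2.14 FPKM. The PBS library was the highest. The log2 fold change was -0.74 after normo-Migs (-1.03 to -0.48), -0.89 after hypo-Migs (-1.17 to -0.63) and -0.55 after CD147KO-Migs (-0.82 to -0.29). The annotation places AL121758.1 on the same strand with exons that share 2292 of the 2698 exon bases of SRXN1, and this gene had 12 reads or fewer in every library. How reads in shared exons were counted is not given in the sources used here, so the level of SRXN1 is uncertain.

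Other genes also share exon bases with members of the set. AC019080.1, on the strand of NFE2L2, shares 1054 bases with it and had between 83 and 154 reads, and AL033397.1 shares 529 bases with GCLC and had between 0 and 37 reads. On the opposite strand, SLC7A11-AS1 shares 865 bases with SLC7A11 and had between 14 and 54 reads, and AC092115.2 shares 575 bases with NQO1 and had 0 reads. AGPS, a peroxisomal enzyme of ether lipid synthesis, shares 54 bases with NFE2L2 on the opposite strand and was well expressed, with 4390 to 5410 reads. Where strand was not used in counting, reads of the opposite strand cannot be told apart from those of the gene.

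To ask whether the oxygen level of the donor cells or their CD147 goes with the pathway, the Mig libraries were compared with each other. The donors of normo-Migs and CD147KO-Migs differed in both, so for that pair oxygen and CD147 cannot be told apart. The 9 genes differed little among the Mig libraries, as did most genes that averaged 100 reads or more. The largest differences were those of SRXN1 (-0.34) and SLC7A11 (0.26) between hypo-Migs and CD147KO-Migs. In absolute size they exceeded those of 93.6% and 88.5% of genes of that depth. The fold criterion was reached by 0 of 9 genes between hypo-Migs and normo-Migs, by 0 between hypo-Migs and CD147KO-Migs and by 0 between normo-Migs and CD147KO-Migs. Among genes that averaged 100 reads or more, 0.236%, 0.195% and 0.236% reached it in these comparisons, and among all genes tested, which include those with few reads, 9.34%, 9.12% and 9.69% did. A 1.5-fold difference was also reached by 0 of the 9 genes in each comparison, against 1.25%, 1.33% and 1.5% of the genes with at least 100 reads. The median absolute log2 fold change of the 9 genes was 0.06 in all 3 comparisons, beside 0.09, 0.09 and 0.10 for genes of that depth.

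Some of these small differences were larger than counting error, as they were for many genes. The interval left out 0 for 40.9% of genes that averaged 100 reads or more between hypo-Migs and normo-Migs, 40.7% between hypo-Migs and CD147KO-Migs and 40.5% between normo-Migs and CD147KO-Migs, and the counts of 4, 4 and 3 of the 9 genes are near these shares. Between hypo-Migs and normo-Migs, it left out 0 for 4 genes: GCLM was higher after hypo-Migs at 0.13 (0.05 to 0.20), and GCLC at -0.14 (-0.23 to -0.06), KEAP1 at -0.10 and NQO1 at -0.06 (-0.10 to -0.02) were lower. Between hypo-Migs and CD147KO-Migs it also left out 0 for 4 genes, with SLC7A11 higher after hypo-Migs at 0.26 (0.17 to 0.35) and SRXN1 at -0.34 (-0.64 to -0.05), TXNRD1 at -0.06 (-0.08 to -0.03) and NQO1 at -0.05 (-0.09 to -0.01) lower. Between normo-Migs and CD147KO-Migs, SLC7A11 at 0.21 (0.11 to 0.31) and GCLC at 0.19 (0.10 to 0.28) were higher after normo-Migs and TXNRD1 at -0.04 (-0.07 to -0.01) was lower. SLC7A11 was thus lowest after CD147KO-Migs, 1.20-fold below hypo-Migs, and its levels after hypo-Migs and normo-Migs were not told apart at this depth (0.05, -0.04 to 0.14). Intervals for NFE2L2 and HMOX1 held 0 in all 3 comparisons, and for HMOX1 their upper ends were at most 0.19 (hypo-Migs against CD147KO-Migs). These intervals say nothing of the spread between cultures, which 1 library per condition cannot show.

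**Figure D2:**
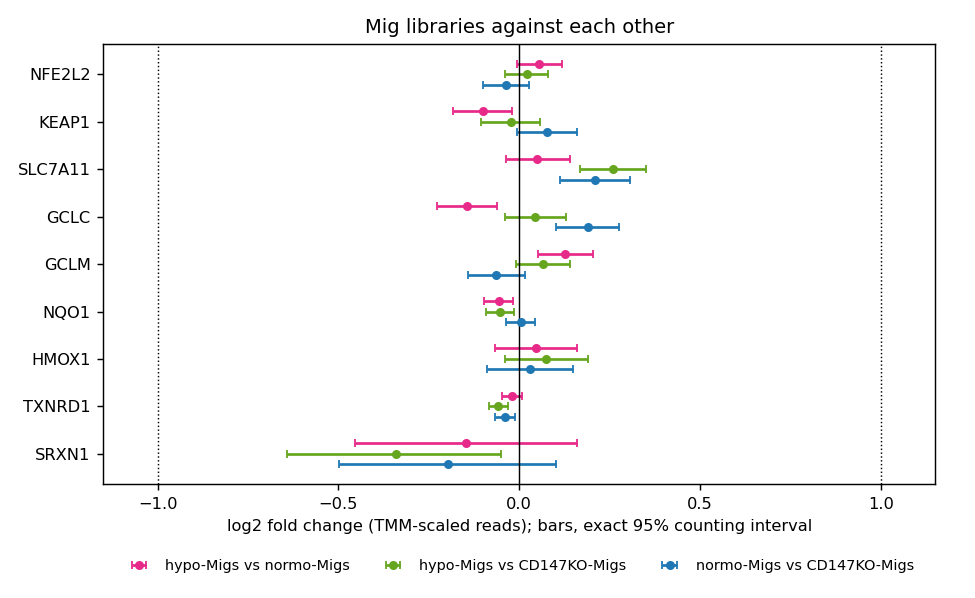
Log2 fold change between pairs of Mig libraries for the 9 genes, with bars for the exact 95% counting interval and dotted lines at a 2-fold difference. The points lie between -0.34 (SRXN1) and 0.26 (SLC7A11), both for hypo-Migs against CD147KO-Migs, and far inside the dotted lines.

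Other genes of the pathway were read from hand-written lists. In what follows, values that come after read counts in groups of 3 are log2 fold changes against PBS for normo-Migs, hypo-Migs and CD147KO-Migs, in that order. Counts of list genes are to be read against all genes tested, of which 18.1%, 18.9% and 18.3% were past the fold upward against PBS and 12.0%, 11.6% and 12.0% downward. Among genes that averaged 100 reads or more, as most list genes did, these shares were 12.1%, 12.5% and 12.5% upward and 5.54%, 5.63% and 5.64% downward. The control list held partners, ligases and relatives of NRF2, and 18 of 18 genes were tested. Against PBS, 2 genes were past the fold criterion upward in each comparison, and 2 (normo-Migs), 3 (hypo-Migs) and 2 (CD147KO-Migs) downward, with medians of -0.32, -0.25 and -0.23. BACH1, a repressor that competes with NRF2 at response elements and restrains HMOX1, had 2895 reads after PBS, 1187 after normo-Migs, 1470 after hypo-Migs and 1195 after CD147KO-Migs, log2 fold changes of -1.27, -1.19 and -1.30. MAFF, a small MAF partner, was also lower in every Mig library than in the PBS library, with 895 reads against 205, 284 and 303 (-2.10, -1.87 and -1.58). NFE2, the haematopoietic relative of NRF2, had 29 reads after PBS and 568, 626 and 708 after Migs (4.22, 4.13 and 4.50), and the other gene on the upward side was BACH2 (chosen after its values were seen), a relative of BACH1, with 0 reads after PBS and 56, 75 and 47 after Migs. SQSTM1, the autophagy receptor p62 that binds KEAP1 (chosen after its values were seen), had 22459 reads after PBS and 12478, 12932 and 12086 after Migs (-0.83, -1.01 and -0.91), and so was past the fold downward after hypo-Migs.

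Of 27 genes for glutathione synthesis, recycling and transfer, 25 were tested, and 9, 8 and 9 of them were past the fold criterion upward and 0 downward after normo-Migs, hypo-Migs and CD147KO-Migs against PBS. The medians were 0.58, 0.47 and 0.60. GSTM1, a glutathione S-transferase, had 0 reads after PBS and 202, 275 and 203 after normo-Migs, hypo-Migs and CD147KO-Migs, which makes it at least 68.2-fold, 78.8-fold and 66.7-fold higher against a floor of 3 reads in the PBS library. GSTP1, another transferase, had 93 reads after PBS and 3068, 3425 and 3256 after Migs (5.03, 4.96 and 5.08). GPX2, the glutathione peroxidase of the gut epithelium, had 6 reads after PBS and 336, 366 and 424 after Migs. GGT5, a gamma-glutamyl transferase, had 7 reads after PBS and 209, 199 and 198 after Migs, and GSTA4 had 9 reads after PBS and 138, 181 and 153 after Migs. GSR, the reductase that regenerates glutathione (chosen after its values were seen), had 1553 reads after PBS and 3309, 4128 and 3522 after Migs (1.11, 1.19 and 1.16), whereas SLC3A2, the heavy chain of the cystine importer (also chosen after its values were seen), differed by 0.17, 0.16 and 0.24.

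The list of 18 thioredoxin, peroxiredoxin and superoxide enzymes had medians near 0 (-0.03, -0.02 and 0.09 against PBS), with 0 genes past the fold upward and 2 downward in each comparison. These were TXNIP, which binds and inhibits thioredoxin, with 7388 reads after PBS and 1749, 2049 and 1796 after Migs (-2.06, -2.07 and -2.06), and TXNRD3, with 717 reads and 196, 255 and 232. Of 9 genes that supply NADPH, the reductant for TXNRD1, NQO1 and GSR, 2, 4 and 4 were past the fold upward and 0 downward, with medians of 0.62, 0.59 and 0.66. ME1, malic enzyme, had 874 reads after PBS and 1935, 2323 and 2164 after Migs (1.16, 1.19 and 1.29). It was not the furthest up, since the largest values of the list were 1.53, 1.40 and 1.53. IDH1 and NNT (both chosen after their values were seen) were at 0.97, 1.07 and 1.10 and at 1.00, 1.14 and 1.16, just short of the fold after normo-Migs and past it after the other Migs. The list of 10 genes for haem and iron handling had 1 gene past the fold upward in each comparison, SLC40A1 (chosen after its values were seen), the iron exporter ferroportin, with 0 reads after PBS and 35, 63 and 29 after Migs, and medians of -0.10, -0.06 and -0.01.

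Of 20 detoxification enzymes and exporters under NRF2, 19 were tested, and 5 were past the fold upward in each comparison with PBS and 3, 3 and 1 downward, with medians of 0.31, 0.37 and 0.42. The aldo-keto reductases were the furthest up: AKR1B10 had 16 reads after PBS and 3033, 3536 and 3455 after Migs (7.42, 7.41 and 7.57). Reads of AKR1C1, AKR1C2 and AKR1C3, close copies between which reads can be misassigned, summed to 39.2 CPM after PBS and 472, 566 and 620 CPM after normo-Migs, hypo-Migs and CD147KO-Migs. ALDH3A1, an aldehyde dehydrogenase (chosen after its values were seen), was at 1.92, 1.68 and 1.82. ABCG2, an efflux pump, stood at the other end with 2850 reads after PBS and 524, 640 and 587 after Migs (-2.42, -2.37 and -2.30). The other genes on that side, ABCC4 and OSGIN1 (chosen after their values were seen), were at -1.05, -1.03 and -0.98 and at -1.09, -1.14 and -0.67.

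SLC7A11 is also a target of ATF4, the factor of the amino acid stress response, so 10 ATF4 targets were read beside it. Against PBS, 2 genes were past the fold upward in each comparison and 0, 1 and 0 downward, with medians of -0.14, -0.09 and -0.06. CTH, which makes cysteine from cystathionine, had 481 reads after PBS and 1638, 2306 and 1912 after Migs (1.78, 2.04 and 1.97), and PHGDH, which opens serine synthesis, had 4118 reads after PBS and 10077, 11714 and 10174 after Migs (1.31, 1.29 and 1.28). TRIB3, a pseudokinase (chosen after its values were seen), was at -0.95, -1.10 and -0.94. Of 10 ferroptosis genes, 9 were tested, with 2, 1 and 2 past the fold upward and 1, 0 and 2 downward, and medians of 0.40, 0.26 and 0.37. SAT1, which acetylates polyamines, had 399 reads after PBS and 3825, 4744 and 3844 after Migs (3.27, 3.35 and 3.24). The remaining genes past the fold in some of these comparisons, chosen after their values were seen, were GCH1 (1.21, 0.94 and 1.01), DHODH (-0.63, -0.90 and -1.03) and the low-count ALOX5, with 33 reads after PBS and 6, 30 and 13 after Migs. The 12 common reference genes had medians of 0.06, 0.02 and 0.03 against PBS. Single reference genes were not all stable, with ranges of -1.01 to 0.87, -1.22 to 0.84 and -1.13 to 0.87. In each comparison 1 of them was past the fold downward and 0 upward.

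Between Mig libraries, the genes of these lists past the fold criterion were ALOX5, with 6 reads after normo-Migs and 30 after hypo-Migs (a log2 difference of 1.79), and GPX3, a secreted glutathione peroxidase, with 82 and 47 reads (-1.01), both chosen after their values were seen and both with few reads. No other gene of the lists was past it, and since 0.195% to 0.236% of all genes that averaged 100 reads or more were, this says nothing particular to the lists.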

How the data were processed

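The authors deposited raw counts per gene. They also deposited FPKM values, in which reads are divided by the length of the gene and the size of the library. The submitters' processing notes list CASAVA 1.8, fastp, HISAT2 2.0.5, featureCounts 1.5.0-p3 and hg38, without roles. Counting settings and strand handling are not given in the sources used here. Identifiers and coordinates of the 9 genes equalled those of GENCODE release 29. Groups came from the treatment labels, with 1 library per condition and 1 batch label.

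A gene was tested where any of the 4 libraries had 10 reads or more (19895 genes). Reads were scaled by TMM (edgeR 4.0.16, R 4.3.3), a prior count of 2 entered each log2 fold change, and a difference was past the fold at an absolute log2 of at least 1, the criterion of the study, whose adjusted p needs replicates. No p-value is given. Intervals of ratios of 2 libraries are exact (Clopper-Pearson) 95% intervals that treat reads as independent and cover counting error only. Reads that carry no molecular identifier need not be independent molecules, so these intervals may be too narrow. A count of 0 allows up to 3 reads. Scripts ran in Python 3.11.15 (scipy 1.17.1, matplotlib 3.10.9), and the procedure was tested on simulated data. Alternatives concerned scaling (DESeq2 1.42.0), filter, prior count, FPKM scale, fold and edgeR's exact binomial test.

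The 9 genes and the lists were chosen with earlier results of these data known, and the within-library ratios were chosen after the values were seen. Genes named from a pathway list without further remark had a mean of at least 100 reads. They were past the fold the same way in all 3 Mig libraries against PBS (up to 5 per list), or between Mig libraries. Not every such gene was named, for example in the NADPH list and among the reference genes. Genes marked as chosen after their values were seen were added outside this rule. SOD2 matched more than 1 row and was left out. Single genes of the lists that are counted but not named are not reported here.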

Additional observations from a re-analysis of the deposited data

How the results depend on the processing

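No paired analysis was possible because each condition had 1 library, and no library could be left out. The number of the 9 genes past the fold stayed at 0 between Mig libraries in all 9 alternatives. Against PBS, it was 3 in each comparison when a 1.5-fold difference was taken, and with hypo-Migs it was 0 instead of 1 on the scale of log2(FPKM + 1), which understates the change of low genes. Of 270 single values recomputed under other scalings, prior counts or FPKM scales, 265 stayed within their counting interval. The other 5 were TXNRD1 without TMM factors, at -0.46, -0.46 and -0.40 against PBS after normo-Migs, hypo-Migs and CD147KO-Migs, NQO1 without them at 0.37 after normo-Migs, and SLC7A11 on log2(FPKM + 1) at -0.73 after CD147KO-Migs. The sign of NQO1 between normo-Migs and CD147KO-Migs changed from 0.00 to -0.02.

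Counts of all genes past the fold depended far more on the handling of low reads. For hypo-Migs against normo-Migs (1858), hypo-Migs against CD147KO-Migs (1814) and normo-Migs against CD147KO-Migs (1928), they were 5112, 4966 and 5930 with no filter on reads, 255, 231 and 265 with at least 10 reads in every library, 56, 80 and 66 on log2(FPKM + 1), 1021, 1005 and 1037 on log2(FPKM + 0.1), 3630, 3662 and 3676 at 1.5-fold, and 975, 1003 and 977 with an adjusted p of 0.05 or less in edgeR's exact binomial test of the 2 libraries in addition. Against PBS, with normo-Migs (6003), hypo-Migs (6067) and CD147KO-Migs (6033), they were 10692, 9642 and 10675 with no filter, 2680, 2755 and 2744 with at least 10 reads in every library, 1619, 1674 and 1658 on log2(FPKM + 1), and 9614, 9696 and 9704 at 1.5-fold. Depth limited SRXN1 most, whose intervals against PBS spanned over 0.5 on the log2 scale.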
